A study of Mus musculus with 72 samples.

Results

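The liver transcriptome of *Scp2* KO mice was compared with that of WT mice in the middle of the dark phase, at ZT16 and ZT18. The comparison took in the 12 of 72 arrays whose labels name these hours, 6 from *Scp2* KO livers and 6 from WT livers, with 3 livers per genotype at each hour. The other 60 arrays, 30 KO and 30 WT, covered the remaining 10 time points of the day and served to ask which differences belonged to the window from ZT16 to ZT18. Each array measured the liver RNA of one mouse on an Illumina mouse BeadChip. The mice were males of 10 to 12 weeks, kept in 12 h of light and 12 h of dark, and food was offered only at night for 4 days before the livers were taken, so that the window fell within the feeding phase of both genotypes. The *Scp2* KO mice lacked the gene in the whole body and had been backcrossed to C57Bl/6, and the WT mice were C57Bl/6J from the same supplier. The controls were a strain of their own, and no source used here calls them littermates. In bulk liver RNA, fewer cells of a type and less RNA per cell cannot be told apart.

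*Scp2* encodes 2 proteins from one locus, sterol carrier protein 2, which binds and moves cholesterol, phospholipids and fatty acyl-CoAs between membranes, and SCPx, a peroxisomal thiolase that shortens branched-chain fatty acids and the side chain of bile acid precursors. Cells sense sterols in the endoplasmic reticulum: when these fall, SREBP2 is released and drives the genes of cholesterol synthesis. Fatty acids and their acyl-CoAs are ligands of PPARα, which drives peroxisomal, microsomal and mitochondrial fatty acid oxidation. In a mouse fed at night, the hours after the first large meal are those in which liver normally takes up food sterols and makes fatty acids from sugar under SREBP1c.

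The loss of *Scp2* transcript was visible in each of the 6 KO livers. Of 4 probes for *Scp2*, a pair lay at the lower end of the scale in the KO livers, with 5.80 to 6.08 on one and 5.79 to 6.14 on the other on the log2 scale, against 12.07 to 12.35 and 12.78 to 13.09 in the WT livers. Another probe still read 10.26 ± 0.10 in KO livers, against 11.67 ± 0.29 in WT livers (SD, n = 6 each). The remaining probe was at 5.79 in KO and 5.78 in WT livers and so checked nothing. The genotypes did not overlap on any of the other 3 probes. Levels are log2 signals after background correction and quantile normalisation. An offset added to every signal holds the dimmest probes near 5.9, so differences between dim signals are understated. The deposited signals carry no detection call, so which dim probes were above background is not known and their differences are given as measured.

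At ZT16 and ZT18, 430 of 16593 genes (2.59%) differed between KO and WT livers at an adjusted p under 0.05 (limma with time as a covariate, Benjamini-Hochberg adjustment). Of these, 242 were higher in KO livers (1.46% of all genes tested) and 188 were lower (1.13%). Most differences were modest: 300 of the 430 were under 0.5 on the log2 scale and 30 were over 1, and 25 of those 30 were higher in KO. In 247 of the 430 the 6 KO livers lay wholly above or wholly below the 6 WT livers, a pattern found in 296 genes (1.78%) over the whole array, 162 (0.976%) above and 134 (0.808%) below. The 10 largest rises held 4 genes of cholesterol synthesis, *Hmgcs1*, *Msmo1*, *Fdps* and *Cyp51*, and 2 of microsomal ω-oxidation of fatty acids, *Cyp4a14* and *Cyp4a12b*. The genes with the largest falls, besides *Scp2*, were *Hamp2*, *Noct* and *Cyp2b10*. When each array was scaled to its median in place of quantile normalisation, 60 genes were higher and 17 lower, 77.9% of calls in the upward direction in place of 56.3%, 75 of the 430 calls were kept and each of the 430 kept its sign. Of the 430 calls, 285 held when each array was left out in turn and 145 were lost without at least 1 array. A model of all 72 arrays, tested at the same hours, called 246 genes higher and 205 lower and kept 319 of the 430 calls. Set numbers, used to name single arrays, are those of the deposited columns, and their meaning is not given in the sources used here.

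Of the genes named below as called, those that also passed with scaling to the median were *Scp2*, the sterol enzymes *Hmgcs1*, *Msmo1*, *Fdps*, *Cyp51*, *Pmvk*, *Mvd*, *Sqle*, *Lss*, *Hsd17b7*, *Nsdhl* and *Dhcr7*, and *Cyp4a14*, *Cyp4a12a*, *Cyp4a12b*, *Pex11a*, *Aldh3a2*, *Acss2*, *Pltp*, *Fitm1*, *Acot11*, *Mtap*, *Hyi*, *Ttc39a*, *Moxd1*, *Clstn3*, *Chrna4*, *Asns*, *Noct*, *Pklr*, *Bsdc1* and *Olig1*, and the rest lost their calls. In the 72-array model, *Asns*, *Serpina12*, *Gsta1*, *Gstt2*, *Gstm4*, *Lbp*, *Ctsc*, *Acsl5*, *Me1*, *Cyp7b1*, *Nr5a2*, *Slc10a1*, *Rora*, *Gnl3*, *Wdr75*, *Ndufb3*, *Hyou1* and *Egr1* did not pass (adjusted p from 0.0520 for *Gnl3* to 0.521 for *Lbp*). With sets as a random block, *Srebf2*, *Nr5a2*, *Ftcd*, *Hyou1*, *Gstm4*, *Egr1*, *Depp1* and *Ccdc151* lost their calls (adjusted p from 0.0552 for *Egr1* to 0.0733 for *Nr5a2*). Each gene is given by its brightest probe. Of 29 genes named by the rule for named genes and called that had several probes, 16 had another probe that passed in the same direction and none had one that passed in the other. The 13 with no other probe past the threshold were *Clstn3*, *Cyp2b10*, *Ftcd*, *Me1*, *Noct*, *Nr5a2*, *Pltp*, *Rora*, *Rrm2*, *Serpina12*, *Slc25a20*, *Srebf1* and *Wdr75*.

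**Figure D1:**
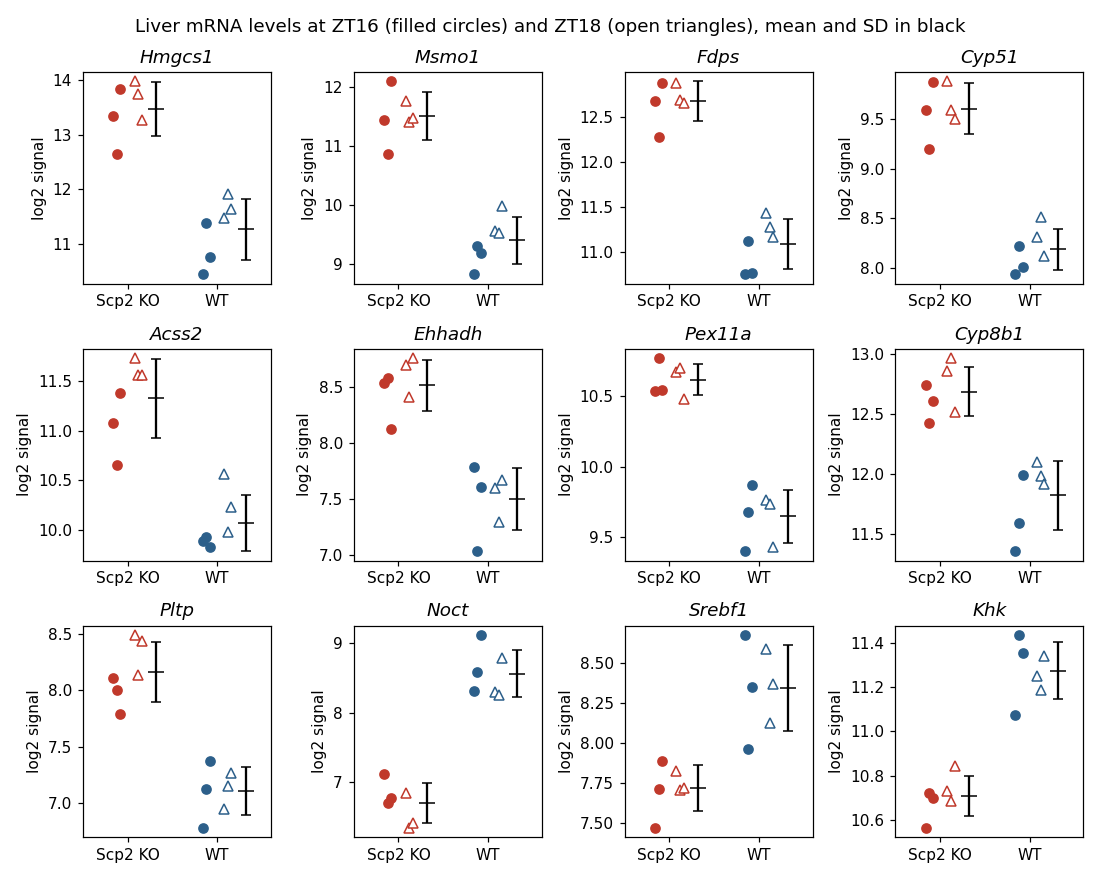
Level of 12 genes in each liver at ZT16 (filled circles) and ZT18 (open triangles), with *Scp2* KO left of WT (y axis, normalised log2 signal; black bars, mean and SD of 6 livers). The 6 KO livers lie above the 6 WT livers for *Hmgcs1*, *Msmo1*, *Fdps* and *Cyp51*, and below them for *Noct*, *Srebf1* and *Khk*.

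Cholesterol synthesis was the list with the highest share of calls. Of 18 measured members, 14 rose in KO livers at ZT16 and ZT18, none fell, and all 18 differences were positive. The median difference was 0.96 on the log2 scale, beside -0.001 over all 16593 genes. The mean log2 level over the list lay between 8.81 and 9.58 in the KO livers (median 9.27), against 8.07 to 8.47 in the WT livers (median 8.35). Not one KO liver reached down to the highest WT liver. Between 12 and 15 members passed when single arrays were left out and 11 passed with scaling to the median.

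*Hmgcs1* encodes the cytosolic HMG-CoA synthase that makes the precursor of mevalonate. Its level was lowest at 12.65, median 13.54 and highest 13.97 in the KO livers, against 10.45, 11.43 and 11.92 in the WT livers. The difference of 2.20 ± 0.20 (SE) was a 4.58-fold rise (adjusted p = 3.47e-05). *Msmo1*, the sterol C4-methyl oxidase, had a lowest level of 10.87, a median of 11.46 and a highest level of 12.10 in KO livers, against 8.83, 9.42 and 9.99 in WT livers. It rose by 2.11 ± 0.18, or 4.31-fold (adjusted p = 1.61e-05). The KO liver with the least of either transcript thus held more than the WT liver with the most.

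Between these steps lie the enzymes that build and close the sterol skeleton. *Fdps*, the farnesyl diphosphate synthase, ranged from 12.27 to 12.88 (median 12.68) in KO livers, against 10.75 to 11.43 (median 11.14) in WT livers, a rise of 1.59 ± 0.10 (adjusted p = 1.85e-06). *Cyp51*, the lanosterol 14α-demethylase, ranged from 9.20 to 9.87 (median 9.59) in KO livers, against 7.94 to 8.52 (median 8.18) in WT livers, a rise of 1.41 ± 0.11 (adjusted p = 6.07e-06). Both separated the genotypes without overlap. Among mevalonate and squalene enzymes, *Pmvk* rose by 0.91, *Mvd* by 1.01, *Sqle* by 1.29 and *Lss* by 1.22. Among the later sterol enzymes, *Hsd17b7* rose by 1.35, *Nsdhl* by 1.34, *Dhcr7* by 0.80, *Sc5d* by 0.51 and *Tm7sf2* by 0.50, of which *Sc5d* lost its call when any of 3 arrays was left out (adjusted p up to 0.0550). *Srebf2*, which encodes SREBP2, rose by 0.23 ± 0.05 (adjusted p = 0.0354) and lost its call when any of 9 arrays was left out (adjusted p up to 0.0771), with sets as a random block (0.0622) and with the replicate block on the authors' log2 values (0.0527). The 4 members that did not pass were *Idi1* (0.60, adjusted p = 0.0553), *Insig1* (0.35), *Ebp* (0.22) and *Stard4* (0.20).

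**Figure D2:**
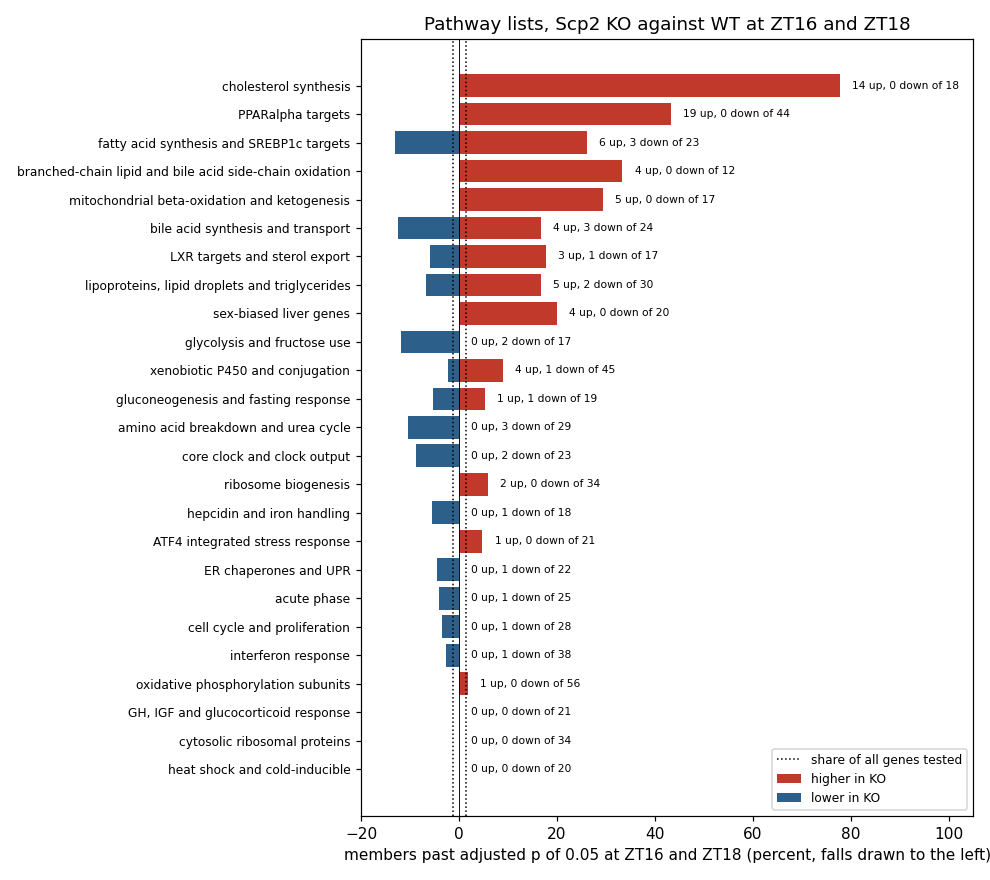
Share of the measured members of each pathway list that passed the test at ZT16 and ZT18 (x axis, percent; rises in KO to the right, falls to the left; dotted lines, share of all genes tested). Cholesterol synthesis has the largest share, 14 of 18, and PPARα targets follow with 19 of 44.

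Promoter sequence was set beside these values because the genes rose together and SREBP2 binds a known element. The sequences are those of RefSeq on GRCm38.p6, and the window searched ran from 250 bases before the gene start to 50 after it. Matches to 2 motifs are shown, with the matched letters in capitals and up to 30 bases on each side, in the direction of the gene. The first is the sterol regulatory element TCACNCCAC, found in *Hmgcs1* at -137 from the gene start (chr13:119690184-119690252, plus strand). The second is the E-box CACGTG, found in 3 of the risen genes: *Dhcr7* at -164 (chr7:143823205-143823270, plus strand), *Hsd17b7* at -143 (chr1:169969313-169969378, minus strand) and *Sc5d* at -98 (chr9:42264363-42264428, minus strand).
Hmgcs1: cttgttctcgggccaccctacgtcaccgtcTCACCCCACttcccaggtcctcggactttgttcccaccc
Dhcr7: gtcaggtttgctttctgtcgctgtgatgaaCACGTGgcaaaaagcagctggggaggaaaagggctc
Hsd17b7: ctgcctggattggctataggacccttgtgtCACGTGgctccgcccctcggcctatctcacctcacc
Sc5d: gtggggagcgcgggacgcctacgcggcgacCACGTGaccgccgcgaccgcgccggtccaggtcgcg

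Both strands were searched and neither motif contains the other. Of the 15 cholesterol synthesis genes with a promoter in the table, 1 (6.67%) held the sterol element, beside 1.48% of the 13336 measured genes with a promoter and 1.44% of all 27025 genes with one. The E-box was held by 4 (26.7%), beside 9.68% of the measured genes and 8.09% of all. The fourth E-box was that of *Insig1*, which did not pass the test. Among all genes higher in KO livers, 198 had a promoter, and 3.03% held the sterol element and 13.1% the E-box. Among the genes lower in KO livers, 143 had a promoter, and the shares were 2.10% and 6.99%. These matches are descriptions of letters in a short window, and no test was made of them.

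PPARα targets formed the other large group. Of 44 measured members, 19 rose in KO livers and none fell, with a median difference of 0.32 on the log2 scale. The mean level over the list lay between 8.72 and 8.81 in KO livers (median 8.74) and between 8.30 and 8.48 in WT livers (median 8.40), so the genotypes were apart although most single differences were small. Without single arrays, 19 or 20 members passed, but with scaling to the median only 4 did. *Ppara* itself was at 6.405 to 6.70 in KO and 6.21 to 6.73 in WT livers and did not pass (0.07, adjusted p = 0.845).

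*Cyp4a14*, a microsomal fatty acid ω-hydroxylase, had the largest measured difference among the called rises, close to that of *Moxd1* (2.37), whose WT livers lay near the lower end of the scale. At ZT18 alone *Cyp4a14* differed by 1.88 and *Moxd1* by 2.42. The level of *Cyp4a14* was lowest at 10.89, median 11.74 and highest 11.96 in KO livers, against 7.77, 9.45 and 9.94 in WT livers, a difference of 2.43 ± 0.32 (adjusted p = 8.05e-04). The WT livers spread over more than 2 log2 units and the KO livers over little more than 1. Among peroxisomal genes, *Ehhadh*, the bifunctional enzyme of β-oxidation, ranged from 8.12 to 8.75 (median 8.55) in KO livers, against 7.04 to 7.79 (median 7.61) in WT livers, a rise of 1.01 ± 0.12 (adjusted p = 4.71e-04). *Pex11a*, which drives the division of peroxisomes, ranged from 10.48 to 10.77 in KO livers, against 9.40 to 9.87 in WT livers, a rise of 0.97 ± 0.08 (adjusted p = 1.61e-05). *Abcd3*, the peroxisomal membrane transporter for long and branched acyl-CoAs, rose by 0.72 ± 0.06 (adjusted p = 1.56e-05), and the thioesterase *Acot8* rose by 0.42 ± 0.08 (adjusted p = 0.00970). All but *Acot8* of these 5 genes separated the genotypes without overlap.

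Rises of mitochondrial genes were smaller. Of 17 measured genes of mitochondrial β-oxidation and ketogenesis, 5 rose and none fell, with a median of 0.22, and none of the 5 passed with scaling to the median. *Acadm*, the medium-chain acyl-CoA dehydrogenase, rose by 0.46 ± 0.09 (adjusted p = 0.0119). *Slc25a20*, the carnitine-acylcarnitine carrier, rose by 0.45 ± 0.05 (adjusted p = 2.33e-04), although a second probe at 7.76 in KO and 7.50 in WT livers did not pass (0.26, adjusted p = 0.322 over all probes), and *Decr1*, the dienoyl-CoA reductase, by 0.43 ± 0.08 (adjusted p = 0.00657). *Cpt2* and *Eci1* rose by 0.32 and 0.31, and *Cpt2* lies 3 measured genes from *Scp2* on chromosome 4. Of 12 genes for branched-chain lipids and the bile acid side chain, the pathway in which SCPx itself works, 4 rose, and each of them was also on the PPARα list: *Aldh3a2*, *Abcd3*, *Acot8* and *Hsd17b4*. *Aldh3a2*, the fatty aldehyde dehydrogenase that acts on phytol-derived aldehydes, ranged from 11.87 to 12.10 in KO livers, against 10.88 to 11.51 in WT livers, a rise of 0.84 ± 0.07 (adjusted p = 1.61e-05).

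The genes of fatty acid synthesis, which belong to the feeding phase, went in both directions. Of 23 measured members of that list 6 rose and 3 fell, with a median of 0.19, and with scaling to the median 1 rose and 1 fell. *Acss2*, which makes cytosolic acetyl-CoA from acetate, was lowest at 10.65, median 11.47 and highest 11.73 in KO livers, against 9.83, 9.95 and 10.56 in WT livers, a rise of 1.26 ± 0.11 (adjusted p = 2.78e-05). The polyunsaturated fatty acid enzymes *Elovl5*, *Fads2* and *Fads1* rose by 0.66, 0.41 and 0.28, and the last 2 lost their calls when any of 5 and 3 arrays was left out (adjusted p up to 0.0647 and 0.0560). *Acsl5*, an acyl-CoA synthetase, rose by 0.34, and *Me1*, the malic enzyme that supplies NADPH, by 0.72, although *Me1* lost its call when any of 8 arrays was left out (adjusted p up to 0.0799). *Fasn*, the fatty acid synthase, differed by 0.09 (adjusted p = 0.688). Its single probe lay close to the lower end of the scale, at 6.08 to 6.36 in KO and 5.91 to 6.22 in WT livers. A difference at such levels is understated. Among members with related roles that did not pass were *Aacs* (0.85, adjusted p = 0.107), *Slc25a1* (0.29, adjusted p = 0.340) and *Acly* (0.23, adjusted p = 0.423), which act on cytosolic acetyl groups, the desaturase *Scd1* (0.28, adjusted p = 0.535) and the elongase *Elovl6* (0.06, adjusted p = 0.956).

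*Srebf1*, the gene of SREBP1, went the other way. Its level was lowest at 7.47, median 7.72 and highest 7.89 in KO livers, against 7.96, 8.36 and 8.67 in WT livers, a difference of -0.62 ± 0.11 (adjusted p = 0.00627). The highest KO liver lay below the lowest WT liver. *Pklr*, the liver pyruvate kinase, fell by 0.70 ± 0.09 (adjusted p = 4.74e-04), and *Khk*, the ketohexokinase that opens fructose breakdown, fell by 0.56 ± 0.06 (adjusted p = 1.69e-04). These 2 were the calls among 17 genes of glycolysis and fructose use. *Dgat2*, which makes triglyceride, fell by 0.32 (adjusted p = 0.0164).

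Among genes of lipid droplets, lipoproteins and triglycerides, 5 of 30 rose and 2 fell. *Lpl*, the lipoprotein lipase, rose by 0.85 ± 0.17 (adjusted p = 0.0162). *Fitm1*, an endoplasmic reticulum protein needed for droplet formation, ranged from 6.79 to 7.22 in KO livers, against 6.12 to 6.46 in WT livers, a rise of 0.74 ± 0.08 (adjusted p = 8.21e-05). *Plin2*, which coats lipid droplets, ranged from 8.01 to 8.67 in KO livers, against 7.20 to 7.94 in WT livers, a rise of 0.67 ± 0.14 (adjusted p = 0.0162). *Fitm2* rose by 0.54 and *Mogat1* by 0.19, the call of *Mogat1* being lost when any of 8 arrays was left out (adjusted p up to 0.0708), while *Apom*, the apolipoprotein that carries sphingosine 1-phosphate, fell by 0.50. Of 17 targets of LXR, the receptor for oxysterols, *Pltp* rose by 1.05 ± 0.11 (adjusted p = 9.34e-05), *Lpcat3* by 0.52 and *Lpl* as above, and *Srebf1* fell. The sterol export pair *Abcg5* (0.32, adjusted p = 0.152) and *Abcg8* (0.39, adjusted p = 0.226) did not pass.

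Bile acid synthesis showed 4 rises and 3 falls among 24 genes, with a median of 0.03. *Cyp8b1*, the sterol 12α-hydroxylase that sets the share of cholic acid, ranged from 12.43 to 12.96 in KO livers, against 11.36 to 12.10 in WT livers, a rise of 0.86 ± 0.10 (adjusted p = 3.66e-04). *Hsd3b7*, an enzyme of sterol ring modification, rose by 0.50 ± 0.07 (adjusted p = 0.00173) and *Abcb4*, the phosphatidylcholine exporter of bile, by 0.45. *Cyp7b1*, of the alternative pathway, rose by 0.72 ± 0.16 but lost its call when any of 7 arrays was left out (adjusted p up to 0.0804). *Cyp39a1* fell by 0.32, the bile acid importer gene *Slc10a1* by 0.20 (lost when any of 6 arrays was left out, adjusted p up to 0.0672), and *Nr5a2*, a nuclear receptor that acts on *Cyp7a1* and *Cyp8b1*, by 0.29, a call lost when any of 9 arrays was left out (adjusted p up to 0.104) and with the set or the replicate block (adjusted p = 0.0733 and 0.0627). *Cyp7a1*, the rate-limiting enzyme of the classical pathway, was at 11.31 to 11.86 in KO livers (median 11.58) and 10.76 to 11.66 in WT livers (median 11.47) and did not pass in this window (0.19 ± 0.13, adjusted p = 0.672).

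Of the genes that fell other than *Scp2*, each taken by its brightest probe, *Hamp2*, a relative of the iron hormone hepcidin, had the largest difference, -2.46 ± 0.48 (adjusted p = 0.0109). It spread from 7.15 to 9.94 in KO livers, against 9.59 to 12.17 in WT livers, and the genotypes overlapped. *Noct*, a clock-controlled phosphatase of NADPH, was lowest at 6.35, median 6.74 and highest 7.12 in KO livers, against 8.26, 8.45 and 9.12 in WT livers (-1.86 ± 0.14, adjusted p = 5.10e-06). A second *Noct* probe did not differ in this way, at 6.75 in KO and 6.89 in WT livers (-0.13, adjusted p = 0.843 over all probes). *Cyp2b10*, the classical target of the xenobiotic receptor CAR, was lowest at 5.96, median 6.18 and highest 6.48 in KO livers, against 6.82, 8.03 and 9.37 in WT livers (-1.66 ± 0.32, adjusted p = 0.0110). The KO livers lay close to the lower end of the scale and the WT livers spread widely. Among 45 genes of xenobiotic metabolism, *Cyp2b10* was the single fall, and *Gsta1*, *Gstt2*, *Ugt2b35* and *Gstm4* rose by 0.69, 0.50, 0.41 and 0.35, *Gstm4* losing its call when any of 6 arrays was left out (adjusted p up to 0.0943).

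Of 29 measured genes of amino acid breakdown and the urea cycle, 3 fell and none rose, with a median of -0.09, and none of the 3 passed with scaling to the median. *Asl*, the argininosuccinate lyase, fell by 0.49 ± 0.09 (adjusted p = 0.00791), *Cps1*, the first enzyme of the urea cycle, by 0.39 ± 0.07 (adjusted p = 0.00790), and *Ftcd*, of histidine breakdown, by 0.29 (lost when any of 8 arrays was left out, adjusted p up to 0.102, and with the set or the replicate block, adjusted p = 0.0675 and 0.0548). *Cps1* ranged from 12.18 to 12.35 in KO livers and from 12.41 to 12.88 in WT livers. *Etnppl*, which breaks down phosphoethanolamine, was at 7.40 to 8.34 in KO and 8.57 to 9.38 in WT livers (-0.96 ± 0.16, adjusted p = 0.00385). *Serpina12*, a secreted serpin also called vaspin, fell by 0.92 ± 0.15 (adjusted p = 0.00382), and did not pass in the 72-array model (adjusted p = 0.0699) or with scaling to the median. *Asns*, the asparagine synthetase driven by ATF4, rose by 0.64 ± 0.11 (adjusted p = 0.00571), the single call among 21 genes of the ATF4 response, and did not pass in the 72-array model (adjusted p = 0.206).

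Most clock genes did not pass. Of 23 genes of the clock and its output, *Noct* and *Rora* fell and none rose, and *Rora* (-0.28, adjusted p = 0.0211) lost its call without the KO set 5 array at ZT18 or the WT set 9 array at ZT16 (adjusted p up to 0.0551). *Arntl*, the partner of CLOCK, was at 5.98 to 6.76 in KO and 6.22 to 6.95 in WT livers. *Dbp*, an output transcription factor, spread from 7.73 to 10.07 in KO livers, against 7.48 to 9.04 in WT livers (0.42, adjusted p = 0.449). *Per1*, *Per2*, *Cry1*, *Cry2*, *Nr1d1* and *Tef* differed by 0.22 or less in either direction and did not pass. The single *Cry1* probe lay at the lower end of the scale, at 5.77 to 6.01 in KO and 5.70 to 5.82 in WT livers. It therefore cannot show whether *Cry1* changed. *Nr1d1* was at 6.11 to 6.68 in KO and 5.99 to 6.41 in WT livers, and *Cry2* at 6.27 to 6.55 and 6.15 to 6.64. These 2 genes and *Arntl* also lay close to the lower end of the scale, where differences are understated.

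Other lists held few calls. Ribosome biogenesis had 2 rises among 34 genes, the nucleolar *Gnl3* (0.53, adjusted p = 0.0204, lost without the KO set 4 array at ZT18 or the WT set 10 array at ZT16, adjusted p up to 0.0554) and *Wdr75* (0.35, adjusted p = 0.0245, lost when any of 5 was left out, adjusted p up to 0.0580), and 34 cytosolic ribosomal protein genes had none. *Ndufb3* (0.23, lost when any of 8 arrays was left out, adjusted p up to 0.0715) was the single call of 56 oxidative phosphorylation genes, *Hyou1* (-0.17, lost when any of 9 was left out, adjusted p up to 0.0817, and with the set block, adjusted p = 0.0560) of 22 endoplasmic reticulum chaperones, *Lbp* (-0.39) of 25 acute phase genes, *Rrm2* (-0.24) of 28 cell cycle genes and *Ly6e* (-0.80 ± 0.11, adjusted p = 0.00131) of 38 interferon genes. The 20 heat shock and cold-inducible genes and the 21 genes of the growth hormone and glucocorticoid response held none. Among 19 fasting genes *Foxo1* fell (-0.34, adjusted p = 0.00395) and *Asns* rose.

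Cell type markers were set beside these differences. The summed signal of 7 hepatocyte markers was 68200 to 74090 in KO livers and 74840 to 80610 in WT livers, so the ranges did not overlap, with 1 of 7 called (*Cps1*, lower) and a median of -0.09. Periportal markers summed to 14080 to 17090 in KO and 16940 to 21170 in WT livers, with 1 of 7 called (*Ctsc*, lower) and a median of -0.22. Of 18 sinusoidal endothelial markers 17 were lower in KO, none passed, and the sums were 4066 to 4889 in KO and 4572 to 5460 in WT livers. *Cps1* is both a hepatocyte marker and one of the urea cycle falls, so the marker sum is not independent of that fall. The part of these shifts in the falls of urea cycle and other hepatocyte genes was not tested. None of 12 pericentral, 13 Kupffer cell, 12 stellate, 5 cholangiocyte, 13 lymphocyte, 5 erythroid and 7 pancreatic markers passed.

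Several of the largest rises lay close to *Scp2* on chromosome 4. Of the 200 nearest measured genes, 100 on each side, 13 were called (6.50%, 11 higher and 2 lower in KO), beside 18 of 767 (2.35%) on the rest of that chromosome and 398 of 15614 (2.55%) on all others. *Ttc39a*, 18 measured genes away, was at 7.71 to 8.08 in KO livers, against 6.11 to 6.25 in WT livers (1.75 ± 0.06, adjusted p = 3.12e-09). *Cyp4a12b* (1.54 ± 0.15, adjusted p = 4.60e-05) and its near-identical neighbour *Cyp4a12a* (1.12 ± 0.13, adjusted p = 2.52e-04), whose probes may share transcripts, lay 43 and 42 genes away and *Cyp4a14* lay 44 away. *Hyi*, a hydroxypyruvate isomerase, lay 96 away and ranged from 10.07 to 10.50 in KO livers, against 8.27 to 8.99 in WT livers (1.57 ± 0.11, adjusted p = 4.17e-06). *Acot11* (1.13) and *Mtap* (0.79) lay 17 and 82 away. The nearest call was *Cpt2* (0.32), 3 away, and *Plin2* (0.67) lay 107 away. *Bsdc1* lay on the same chromosome 227 genes away and was at 6.38 to 6.74 in KO livers, against 7.54 to 7.70 in WT livers (-1.04 ± 0.05, adjusted p = 5.43e-08). Loss of *Scp2* and a segment of donor-strain chromosome carried along with it cannot be told apart for these genes.

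Other genes among the 10 largest rises and falls had no place in a list. *Moxd1*, a monooxygenase related to dopamine β-hydroxylase, was at 7.38 to 8.93 in KO livers (median 8.56), against 5.81 to 5.996 in WT livers (2.37 ± 0.23, adjusted p = 5.99e-05), the WT livers being close to the lower end of the scale. *Clstn3*, whose locus also gives a lipid droplet protein, was at 7.79 to 8.55 in KO livers and 6.32 to 7.18 in WT livers (1.40 ± 0.09, adjusted p = 1.38e-06), while its second probe was near the lower end of the scale in both genotypes, at 5.99 in KO and 6.01 in WT livers. *Tmem254a* and *Olig1* fell by 0.97 and 0.94. *Olig1* separated the genotypes and *Tmem254a* did not.

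The second question was which of these differences belonged to ZT16 and ZT18 rather than to the day as a whole. Over the other 10 time points, 1106 genes were higher and 1183 lower in KO livers (6.67% and 7.13% of genes, with 5 times as many arrays). Of the 430 genes called in the window, 382 (88.8%) passed there in the same direction, which is 16.7% of the calls at the other time points, none passed in the opposite direction and 48 did not pass. The 2 sets of livers share no animal. The sign of the mean difference was the same for 421, and for 298 it was the same at each of the 10 other time points. The median size was 0.36 in the window and 0.28 at the other time points, with 340 of 430 larger in the window, and the genes were picked for their values in the window.

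When the KO minus WT difference of the window was tested against that of the other 10 time points, no gene passed at an adjusted p under 0.05 in either direction (limma, 72 arrays). Without adjustment, 979 genes (5.90%) had a p under 0.05, 485 (2.92%) with a more positive and 494 (2.98%) with a more negative difference. No gene can therefore be called specific to the window from these arrays. The other 5 pairs of neighbouring hours, tested in the same way, gave 40 such genes at ZT12 and ZT14, 1 each at ZT4 and ZT6 and at ZT8 and ZT10, and 0 at ZT0 and ZT2 and at ZT20 and ZT22. The WT set 6 array at ZT12 had the lowest median Pearson correlation with the other arrays (0.964, with 0.982 the next lowest). How many of the 40 genes rest on that array was not tested. With 12 arrays each, the plain comparison of KO with WT called between 281 and 684 genes per pair, and the 430 of ZT16 and ZT18 fell between them.

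**Figure D3:**
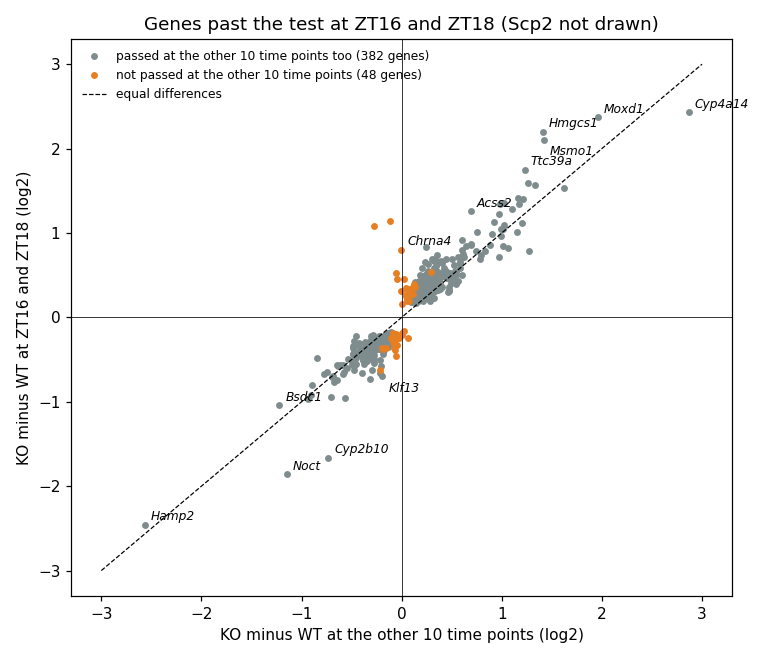
KO minus WT difference at ZT16 and ZT18 (y axis, log2) against the difference at the other 10 time points (x axis, log2) for the genes called in the window, each point a gene (*Scp2* not drawn; dashed line, equal differences). Grey points, 382 genes with *Scp2* counted, passed at the other time points too, and orange points, 48 genes, did not.

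The 2 genes nearest to the threshold, named after their values were seen, were *Klf13* and *Ccdc151*. *Klf13*, a Krüppel-like transcription factor, was lowest at 6.82, median 7.01 and highest 7.16 in KO livers, against 7.45, 7.67 and 8.02 in WT livers in the window. Its difference was -0.70 there and -0.19 at the other time points, so the window differed by -0.51 ± 0.10 (SE, adjusted p = 0.0641). In WT livers its mean stayed between 7.48 and 8.07 from ZT8 to ZT20, whereas in KO livers it was 7.87 at ZT12, 7.14 at ZT16 and 6.88 at ZT18. *Ccdc151*, known for its part in the dynein arms of cilia, was at 6.35 to 6.77 in KO livers and 6.63 to 7.27 in WT livers in the window, with a difference of -0.46 there and -0.06 elsewhere (-0.40 ± 0.08, adjusted p = 0.0641). Its WT mean was 6.94 and 6.95 at ZT16 and ZT18 and between 6.16 and 6.74 at other hours.

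Whether these 2 genes passed depended on single arrays. *Klf13* passed without the WT set 6 array at ZT16 (-0.57, adjusted p = 0.0178) or at ZT18 (-0.57, adjusted p = 0.00677). *Ccdc151* passed without the WT set 6 array at ZT18 (-0.48, adjusted p = 0.00157), the KO set 6 array at ZT18 (-0.45, adjusted p = 0.0297), the WT set 10 array at ZT16 (-0.44, adjusted p = 0.0469) or the WT set 9 array at ZT16 (-0.44, adjusted p = 0.0417). Without the WT set 6 array at ZT18, *Cdkn1a* (-1.0, adjusted p = 0.00393) and *Tcim* (-0.55, adjusted p = 0.0228) passed too, and without the KO set 4 array at ZT16, *Spg21* and *Ndrg1* passed (both 0.42, adjusted p = 0.0321). With all arrays, *Ndrg1* had an adjusted p of 0.126: its difference was -0.08 in the window and -0.45 at the other time points.

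*Ttc39a* hinged on an array outside the window. At ZT12 it was 7.53, 7.50 and 7.62 in the KO livers, against 6.29, 7.81 and 6.08 in the WT livers, the middle value being that of WT set 6, which stood apart from the other WT arrays of that hour. Without that array, the window exceeded the other time points by 0.47 (adjusted p = 0.00312), and *Klf13* (-0.50) and *Ccdc151* (-0.39) passed as well, both at an adjusted p of 0.0465. The mean of *Ttc39a* in KO livers was 7.91 and 7.92 at ZT16 and ZT18 and between 7.18 and 7.66 at other hours.

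Most cholesterol synthesis genes had a larger difference in the window than over the rest of the day, but not one member passed the test of that difference after adjustment. The median difference of the 18 members was 0.96 in the window and 0.68 over the other 10 time points. Of the 18, 16 were larger in the window, and 5 had an unadjusted p under 0.05. Of all 16593 genes, 8238 had a more positive difference in the window, 485 (2.92%) at an unadjusted p under 0.05. By single hours the median lay at 1.01 at ZT16, 0.91 at ZT18 and 1.06 at ZT20, and also at 1.05 at ZT8, so that the window was not the single peak. *Hmgcs1* differed by 2.20 in the window and 1.41 elsewhere (unadjusted p of the difference = 9.19e-04) and *Msmo1* by 2.11 and 1.42 (unadjusted p = 0.00363). For *Hmgcs1* the KO mean was 13.28 ± 0.60 at ZT16 and 13.94 ± 0.18 at ZT6, whereas the WT mean was 10.87 ± 0.47 at ZT16 and 12.45 ± 0.31 at ZT6 (SD, n = 3 each). Across the 18 members, KO livers were lower in the window than at the other time points in 3 (median change 0.06), and WT livers were lower in 11 (median change -0.11), while the medians of all genes were -0.0009 in KO and -0.0003 in WT livers. Of all genes, 50.8% were lower in the window in KO livers and 50.3% in WT livers.

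**Figure D4:**
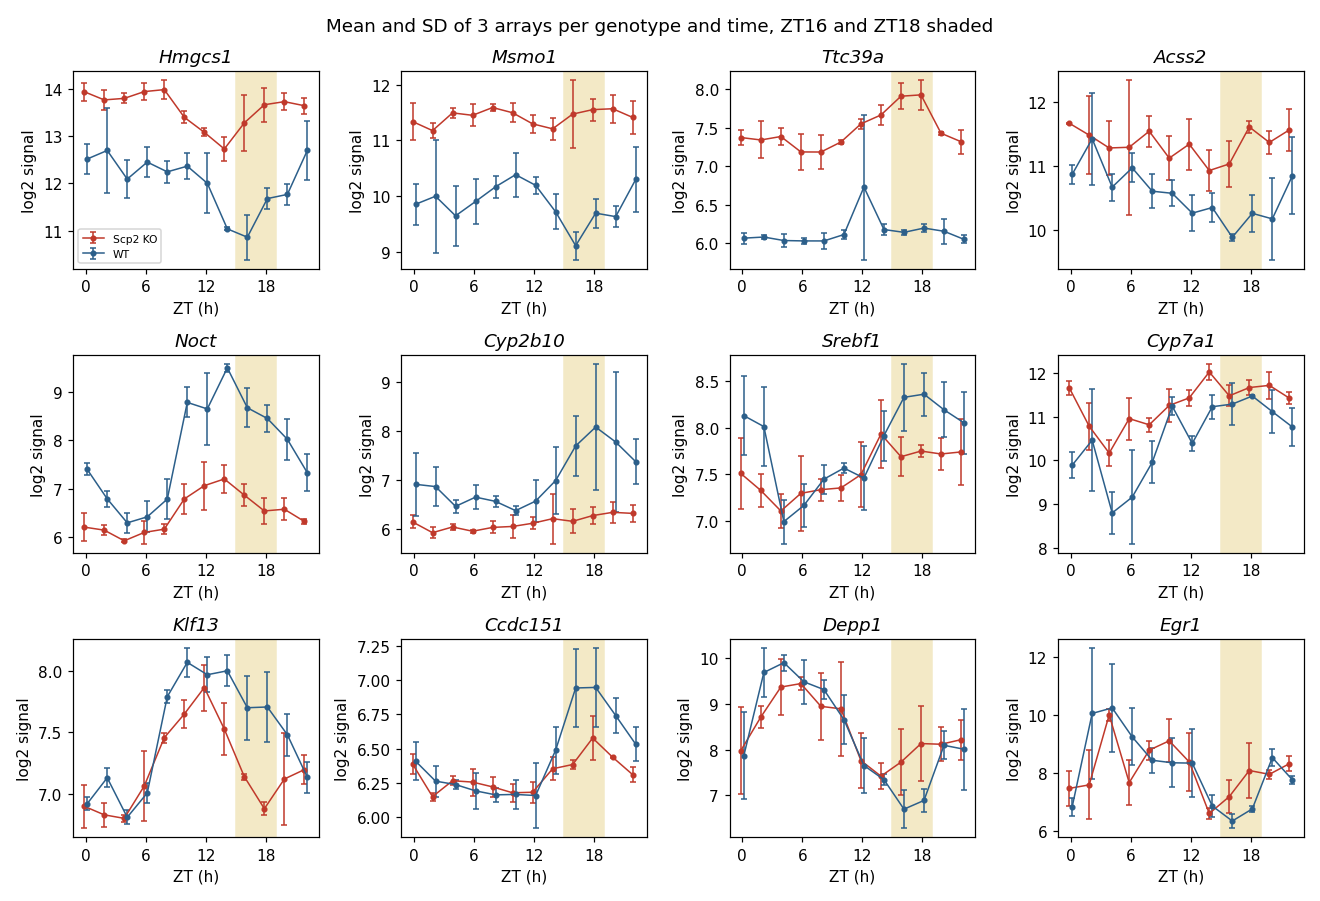
Mean level of 12 genes over the 12 time points in *Scp2* KO and WT livers (x axis, ZT in hours; y axis, normalised log2 signal; error bars, SD of 3 livers; ZT16 and ZT18 shaded). For *Hmgcs1* the KO mean is 13.28 and the WT mean 10.87 at ZT16, and for *Cyp2b10* the KO line stays between 5.93 and 6.35.

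Other genes with a larger difference in the window, again not past the threshold after adjustment, were *Noct*, *Cyp2b10* and *Acss2*. *Noct* differed by -1.86 in the window and by -1.15 over the other 10 time points together (unadjusted p = 4.96e-04). By single hours its difference was larger at ZT14 (-2.30) and ZT10 (-2.00) than at ZT16 (-1.81) and ZT18 (-1.91), and smaller at the remaining hours. Its WT mean climbed to 9.50 at ZT14 and was 8.67 and 8.45 at ZT16 and ZT18, while its KO mean never passed 7.20. *Cyp2b10* differed by -1.66 and -0.74 (unadjusted p = 0.00393). Its KO mean stayed between 5.93 and 6.35 at every hour, and its WT mean was 7.69 at ZT16, 8.08 at ZT18 and 7.77 at ZT20 but 6.38 at ZT10. *Acss2* differed by 1.26 and 0.69 (unadjusted p = 0.0299).

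*Srebf1* passed in the window alone and *Cyp7a1* outside it alone, and neither passed the test between them after adjustment. *Srebf1* passed in the window (-0.62) and not at the other 10 time points (-0.21, adjusted p = 0.0550) (unadjusted p of the difference = 0.0213). Its KO mean was 7.69 and 7.75 at ZT16 and ZT18, against 8.33 and 8.36 in WT livers, whereas at ZT14 KO and WT livers were at 7.93 and 7.92. The fall was not particular to the window: it was -0.62 at ZT0 and -0.685 at ZT2, beside -0.64 and -0.61 at ZT16 and ZT18. At ZT20 and ZT22 the difference was -0.47 and -0.31, and from ZT4 to ZT14 it lay between -0.21 and 0.13. *Cyp7a1* passed at the other time points (0.93, adjusted p = 2.67e-07) and not in the window (0.19, unadjusted p of the difference = 0.0108). In KO livers it was at 11.48 at ZT16 and 11.67 at ZT0, and in WT livers at 11.29 at ZT16 and 9.89 at ZT0. A small *Cyp7a1* difference was not particular to the window: it was 0.018 at ZT10 and 0.32 at ZT2, beside 0.19 and 0.195 at ZT16 and ZT18. At the remaining hours it lay between 0.602 at ZT20 and 1.802 at ZT6, with 1.782 at ZT0.

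The PPARα targets had like medians in and out of the window: their median difference was 0.32 there and 0.30 elsewhere, 20 of 44 were larger in the window, and *Cyp4a14* differed by 2.43 and 2.87. The 19 members called in the window compare with 29 higher and 1 lower at the other time points. The interferon list had no rise and 18 falls among 38 genes at the other time points (60 arrays, 7.13% of all genes lower). In the window it had 1 fall (12 arrays, 1.13% of all genes lower), and these counts differ in the number of arrays. Its median difference was -0.01 in the window and -0.09 elsewhere, and 33 of 38 members were more positive in the window (9 at an unadjusted p under 0.05), beside 8238 of all 16593 genes. By single hours the median of the interferon list was 0.02 at ZT16 and -0.01 at ZT18, close to ZT14 (-0.02) and ZT20 (-0.03). At the remaining hours it lay between -0.14 and -0.04. The mean log2 level over the list was 6.78 to 7.01 in KO livers and 6.85 to 7.001 in WT livers at ZT16 and ZT18.

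**Figure D5:**
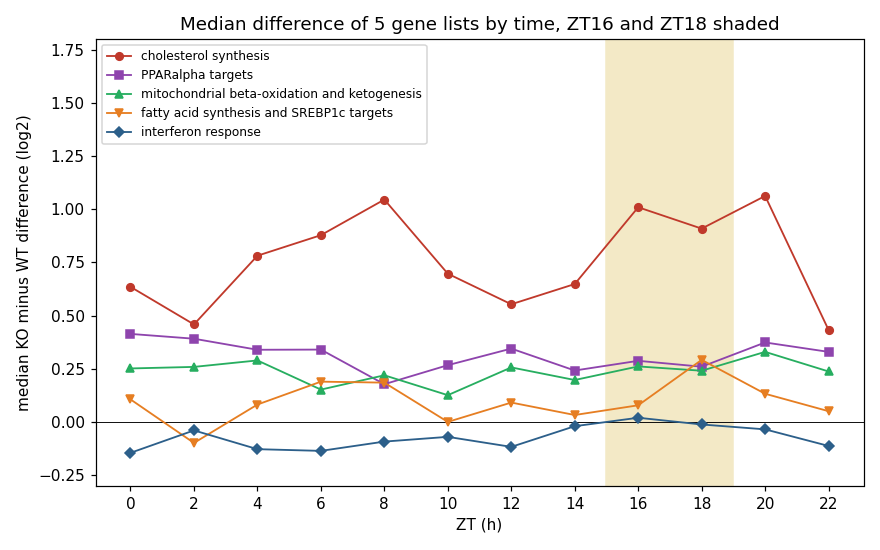
Median KO minus WT difference of the members of 5 gene lists at each time point (x axis, ZT in hours; y axis, log2 difference; 1 line per list; ZT16 and ZT18 shaded). Cholesterol synthesis ranges from 0.43 at ZT22 to 1.06 at ZT20, and lies at 1.01 and 0.91 at ZT16 and ZT18.

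The 48 genes called in the window and not at the other time points included, beside *Srebf1*, *Acsl5*, *Gnl3*, *Wdr75*, *Hyou1*, *Slc10a1* and *Ccdc151*, genes named here after their values were seen. *Adh4*, an alcohol dehydrogenase that oxidises retinol, was at 9.51 to 10.12 in KO livers, against 9.07 to 9.55 in WT livers (0.46 ± 0.06, adjusted p = 6.55e-04), and differed by 0.02 elsewhere. *Chrna4*, a subunit of the neuronal nicotinic receptor, was at 6.28 to 7.47 in KO livers and 6.001 to 6.39 in WT livers (0.80 ± 0.13, adjusted p = 0.00324), and differed by -0.01 elsewhere. *Egr1*, an immediate early transcription factor, was at 6.75 to 8.86 in KO livers, against 6.17 to 6.90 in WT livers (1.08 ± 0.26, adjusted p = 0.0427), and differed by -0.28 elsewhere. *Depp1*, a FOXO target, was at 7.03 to 8.64 in KO livers, against 6.39 to 7.16 in WT livers (1.14 ± 0.27, adjusted p = 0.0397), and differed by -0.12 elsewhere. The difference between window and other time points had an adjusted p of 0.353 for *Adh4*, 0.317 for *Chrna4*, 0.701 for *Egr1* and 0.431 for *Depp1*, so a call in the window alone is not a test of specificity. The calls of *Egr1*, *Depp1* and *Ccdc151* were lost when any of 8, 9 and 7 arrays was left out (adjusted p up to 0.108, 0.0990 and 0.0709).

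ZT16 and ZT18 themselves could not be told apart by genotype effect. No gene had a KO minus WT difference that changed between these hours at an adjusted p under 0.05, with 488 genes (2.94%) under 0.05 before adjustment. Taken singly with 3 livers per genotype, ZT16 gave 93 higher and 63 lower genes and ZT18 gave 93 higher and 50 lower. *Hmgcs1* in KO livers was 13.35, 12.65 and 13.83 at ZT16 and 13.97, 13.74 and 13.27 at ZT18, and in WT livers 10.45, 11.38 and 10.76 at ZT16 and 11.48, 11.92 and 11.64 at ZT18. Each KO liver at either hour was thus above each WT liver at both.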

How the data were processed

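Liver RNA of 72 mice was hybridised to Illumina mouse BeadChips, 1 array per mouse, 3 per genotype at each of 12 time points. The authors deposited probe intensity with no background subtraction, normalisation or detection p, and a second table of log2 values normalised by the authors (Partek, per the submitters' processing notes, version not given). Intensity of all 72 arrays was corrected with normexp (offset 50), quantile normalised and taken to log2 (limma 3.58.1, R 4.3.3). Of 25697 probes, 23978 had a single gene symbol in the platform annotation and 1719 had none, and the brightest probe stood for each of the 4777 genes with several, giving 16593 genes. Signals at the 25th percentile of genes (5.91 on the log2 scale) and under were counted as dim.

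KO was compared with WT in the 12 arrays of ZT16 and ZT18 with time as a covariate, in the other 60 arrays with time as a covariate, and between these in a model of 24 genotype and time groups. Calls used limma with Benjamini-Hochberg adjustment over all genes at 0.05, and p-values measure the spread between these mice. The number of arrays limits the precision. Named were *Scp2*, the 10 largest rises and falls, up to 3 genes called per list, and genes the study discusses, and others where stated. The gene lists, the named genes and the choice of window were made with earlier results of these data known. Lists are described by counts and medians, with no test. Scripts were tested on simulated data. Alternatives were the authors' log2 values, no background correction, median scaling, a filter on dim genes, every probe, other thresholds, sets or replicate numbers as a block, the 72-array model, the 12 arrays normalised alone, single time points and leaving out each array. Replicate numbers are given for the authors' log2 values, and the names of the intensity columns do not carry them. Some items are not reported here.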

Additional observations from a re-analysis of the deposited data

Results flagged for a closer look

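In 6 of 154 groups of 6 livers (3.90%), one liver at ZT16 or ZT18 lay farther from the rest than Dixon's test allows at the 95% level, close to the 1 in 20 that chance gives. In KO livers, the KO set 6 array at ZT18 was the lowest for *Cyp4a14* (10.89, nearest 11.70) and the highest for *Plin2* (8.67, nearest 8.18), and the KO set 6 array at ZT16 was the highest for *Ndufb3* (9.91, nearest 9.73). In WT livers, the WT set 6 array at ZT18 was the highest for *Acot8* (8.99, nearest 8.61), the WT set 9 array at ZT16 was the lowest for *Cyp4a12a* (10.76, nearest 11.45), and the WT set 10 array at ZT16 was the lowest for *Cyp7a1* (10.76, nearest 11.45). The KO set 6 array at ZT16 also had the lowest median rank correlation with other arrays of the 12 (0.857, and 0.889 over brighter probes). Without it 205 genes were higher and 140 lower in KO livers.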

How the results depend on the processing

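Of the 242 higher and 188 lower genes, scaling to the median gave 60 and 17, a threshold of 0.01 left 135 and 96, ZT16 alone 93 and 63, and ZT18 alone 93 and 50, and a threshold of 0.1 gave 335 and 298. Single time points have fewer livers, and the cause of the loss under median scaling was not tested. Without single arrays, 190 to 241 genes were higher and 140 to 212 lower. The other settings stayed within 1.5 times, and all 430 genes kept their sign in every setting. Of 58 calls named by the rule for named genes, median scaling kept 22, the 72-array model 44, the authors' log2 values 54, sets as a random block 54 and the replicate block 55. Same-numbered KO and WT livers correlated between 0.0184 and 0.334 in their deviations from group means (mean 0.166, 6 pairs). Differently numbered ones correlated between -0.282 and 0.125 (mean -0.0827, 12 pairs). The main model did not use the numbers, which the names of the intensity columns do not carry. Rank order would tie intensity columns to the authors' columns: over 72 arrays the lowest best rank correlation was 1. That match was not used in the main model. The paper's results describe mRNA harvested over consecutive days and its methods a single day, and neither is tied to replicate numbers. Whether the numbers mark a factor shared by the livers, such as a day of harvest, was not tested. With the replicate block, on the authors' log2 values, 312 genes were higher and 263 lower, and 406 of the 430 calls remained. The same values without the block gave 221 higher and 170 lower. The block left 0 genes that set the window apart from the other time points in either direction.

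For the window against the other time points, 0 genes passed in either direction in all settings except these. Without the WT set 6 array at ZT12, 1 was higher and 2 lower, 2 were lower at a threshold of 0.1, and without single arrays of the window 0 to 2 were higher and 0 to 4 lower. Signs turned in a pair of genes that did not pass: *Cd36* (-0.006) was 0.0236 at ZT16 alone and between -0.02602 and 0.01365 without single arrays, and *Clock* (0.018) was -0.02763 at ZT18 alone and between -0.02744 and 0.07278 without single arrays. Dim signals limit the range: the offset compresses differences more the dimmer the signal, with no cut-off at 5.91 on the log2 scale. The authors' files give no detection call.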
